A study of Mus musculus with 20 samples.

Results

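The 41 interferon-stimulated genes described here were taken by symbol from a testis RNA-seq count table of 22066 genes, and all 41 were present and passed the filter on low counts. They were split by known function into a type I core of 29 genes, a set of 11 GTPases (the guanylate-binding proteins, GBPs, and the immunity-related GTPases, IRGs) and Irf1, which was put in neither. Mice of the NSG strain, which lack mature T, B and natural killer cells, were sampled as 5 groups of 4 testis samples, all from males. An age of 6 weeks is recorded for all 5 groups. NC held untreated controls. ALL held mice given 400000 cells of human B-ALL (B-cell acute lymphoblastic leukaemia), passaged from a patient, by tail vein at 6 weeks of age, with saline and no drug. VCR held mice given vincristine sulfate, a tubulin-binding drug, at 0.5 mg/kg into the peritoneum weekly for 3 weeks from day 69; their labels name no injected cells. Low-VCR and High-VCR held mice that had both the leukaemia and the drug, split by how far leukaemia had infiltrated the peripheral blood. Nothing in the labels ties each sample to its own mouse, so a p-value reflects sample-to-sample spread only.

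Interferons are secreted proteins that warn cells of infection or damage. Type I interferon signals through a receptor whose kinases phosphorylate STAT2, which joins IRF9 in a complex that binds the interferon-stimulated response element (ISRE) in promoters. Interferon gamma acts at the gamma-activated site (GAS) and through the induced factor IRF1, and the GBP and IRG GTPases are known as strong targets of that arm. In the testis, macrophages, endothelial cells, Sertoli cells and Leydig cells can all respond to interferon, while germ cells respond weakly.

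Libraries held 9.43 to 16.4 M (mega) counts, so 3 counts stood for 0.167 to 0.365 CPM (a count divided by the library's total in M, scaled between libraries with TMM). The tissue matched its label: the summed level of 18 Sertoli genes was 1723 to 1983 CPM in NC and that of 12 round spermatid genes 3818 to 4018 CPM. Libraries of drug-treated mice stood apart from the untreated ones. On the first principal component of all genes the untreated libraries spanned -125 to -108.7 and the treated ones 0.39 to 238, with VCR 1 farthest out. The share of counts from mitochondrial genes was 1.78 to 2.60% in untreated and 4.69 to 11.9% in treated libraries, and its part in the results was not tested. Library numbers were 1 to 8 for NC and VCR and higher, from 26 on, for the engrafted groups, so engraftment and number range cannot be told apart where VCR or NC is compared with an engrafted group.

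Promoters were examined for the letters of both elements. RefSeq windows of 300 bases, from 250 before to 50 after the transcription start on the build GRCm38.p6, were found for 27 of the 41 genes and for 15652 genes of the table. An ISRE was searched as GAAA, NN and GAAA in a row and a GAS as TTCNNNGAA, on both strands, with overlaps between them allowed. An ISRE was present in 18 of the 27 members (66.7%) against 3.83% of all windowed genes, and a GAS in 9 (33.3%) against 8.73%. All 7 windowed GTPase genes held an ISRE and 4 held a GAS, while 11 of 19 core genes held an ISRE and 4 a GAS. Of 14 macrophage genes with a window, 2 held an ISRE and none a GAS, and of 10 endothelial genes none held either. A match describes these letters and is not a shown binding site.

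The sequences below are the 250 bases before the start of 6 members, 5′ to 3′ on the gene's strand, with matches to either element in capitals. Bst2 (chr8:71537473-71537722, minus strand) and Ifi35 (chr11:101448162-101448411, plus strand) are the leading core genes with and without an ISRE. Gbp2 (chr3:142620413-142620662, plus strand) leads the GTPases with one. Leading means the smallest adjusted p in VCR against NC, from the test described below, among genes with a window. Gbp5 (chr3:142496684-142496933, plus strand), Isg15 (chr4:156200819-156201068, minus strand) and Irgm1 (chr11:48871421-48871670, minus strand) were added after their values were seen, Gbp5 because it moved against the other GTPases.
Bst2: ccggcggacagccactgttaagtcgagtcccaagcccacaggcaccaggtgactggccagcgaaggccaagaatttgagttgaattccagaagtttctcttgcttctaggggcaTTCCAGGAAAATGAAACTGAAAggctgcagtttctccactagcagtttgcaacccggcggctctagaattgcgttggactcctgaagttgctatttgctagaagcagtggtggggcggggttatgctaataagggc
Ifi35: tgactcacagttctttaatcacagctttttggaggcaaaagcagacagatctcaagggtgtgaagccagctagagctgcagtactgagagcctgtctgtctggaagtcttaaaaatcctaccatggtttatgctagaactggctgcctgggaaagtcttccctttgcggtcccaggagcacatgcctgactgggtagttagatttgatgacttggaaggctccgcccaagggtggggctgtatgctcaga
Gbp2: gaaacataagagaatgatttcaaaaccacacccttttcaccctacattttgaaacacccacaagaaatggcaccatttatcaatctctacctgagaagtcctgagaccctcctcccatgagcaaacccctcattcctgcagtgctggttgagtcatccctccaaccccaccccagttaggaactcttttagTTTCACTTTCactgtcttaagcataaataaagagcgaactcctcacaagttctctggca
Gbp5: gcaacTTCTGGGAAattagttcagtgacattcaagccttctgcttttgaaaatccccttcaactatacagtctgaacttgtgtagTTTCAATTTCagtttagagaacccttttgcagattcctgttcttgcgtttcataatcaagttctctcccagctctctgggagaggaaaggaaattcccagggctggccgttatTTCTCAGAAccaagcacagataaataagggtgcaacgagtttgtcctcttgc
Isg15: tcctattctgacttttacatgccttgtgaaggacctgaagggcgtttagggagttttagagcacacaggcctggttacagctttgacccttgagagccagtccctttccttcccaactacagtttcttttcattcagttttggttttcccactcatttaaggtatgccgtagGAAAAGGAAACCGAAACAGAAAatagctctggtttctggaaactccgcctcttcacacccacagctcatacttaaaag
Irgm1: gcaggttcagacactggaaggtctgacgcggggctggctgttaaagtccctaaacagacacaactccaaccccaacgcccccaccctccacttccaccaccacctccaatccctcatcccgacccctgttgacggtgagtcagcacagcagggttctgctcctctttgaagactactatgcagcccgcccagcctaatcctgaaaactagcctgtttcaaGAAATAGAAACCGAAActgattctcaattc
In Bst2 a pair of ISRE matches began 130 and 124 bases before the start, and a GAS match at 136 overlapped the first. Isg15 had 3 ISRE matches in a row, at 78, 72 and 66 bases, and Irgm1 a pair at 30 and 24. Gbp2 had 1 ISRE match at 59 bases, read on the opposite strand. Gbp5 had an ISRE match at 165 bases, also on the opposite strand, and GAS matches at 245 and 52. The printed stretch of Ifi35 has none; its only match, a GAS, began 8 bases after the start. Gbp5 thus carried the letters of both elements, as did 4 of the 7 GTPase genes with a window.

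With vincristine, most interferon-stimulated genes were higher in the testis in every comparison of treated with untreated mice. In VCR against NC 38 of 41 rose and 1, Gbp5, fell, with a median log2 fold change of 2.80. In Low-VCR against ALL 37 rose and 2 fell (median 2.28), and in High-VCR against ALL 37 rose and 2 fell (median 2.45). Here and below, a gene rose or fell where edgeR's quasi-likelihood test gave an adjusted p (Benjamini-Hochberg, across the 16534 genes tested) under 0.05, and ± marks a standard error of a log2 fold change with 4 libraries per group. The drug moved much of the transcriptome: 77.7% of all tested genes were called in VCR against NC (42.1% higher, 35.6% lower), 51.6% in Low-VCR against ALL (36.4% higher, 15.2% lower) and 72.9% in High-VCR against ALL (42.4% higher, 30.5% lower). The median of all tested genes was 0.10, 0.08 and 0.16 in these comparisons. In bulk tissue, fewer cells of a type and less RNA per cell cannot be told apart, and every direction here is relative to the tested transcriptome as TMM scales it; what remains relative to macrophage, endothelial and Sertoli genes is given further on. The same 37 genes rose in all 3 comparisons, 26 of the core, 10 GTPases and Irf1, and Gbp5 alone fell in all 3.

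**Figure D1:**
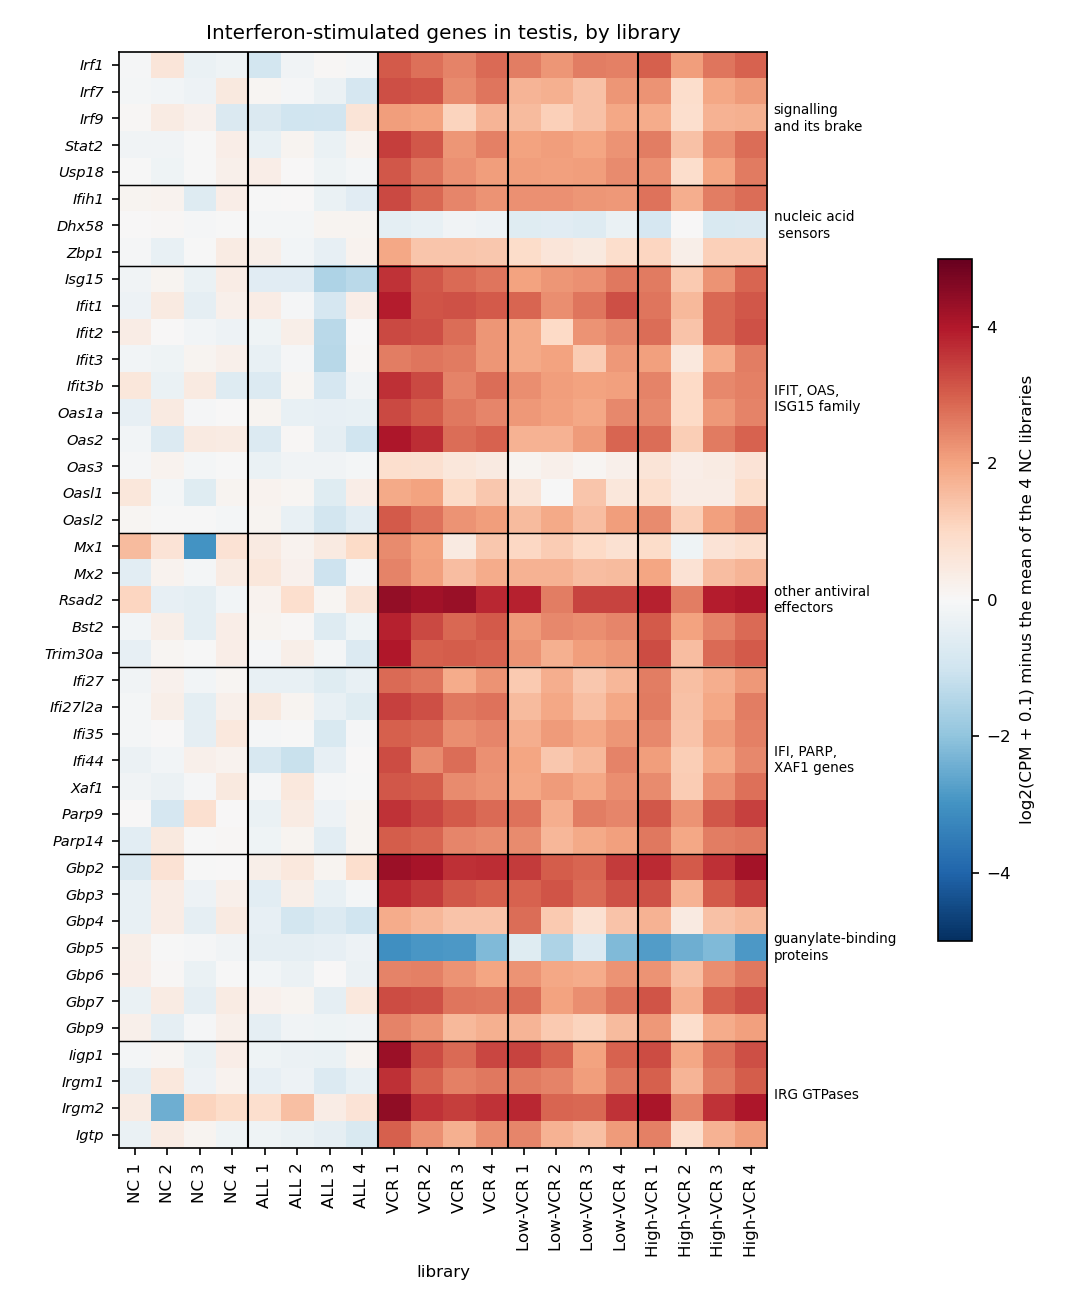
Heat map of the 41 genes (rows, grouped by role) in 20 libraries (columns, grouped). Colour gives log2(CPM + 0.1) minus the mean of the 4 NC libraries, capped at 5 in either direction. On this TMM scale the 12 treated libraries are red for most genes, while Gbp5 is blue and Dhx58 pale; High-VCR 2 is paler than the other High-VCR libraries, and on scales set by other cell types several genes turn (see the scaling plot).

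Leukaemia without the drug left the genes near the control level. In ALL against NC edgeR called none of the 41 genes and 0% of all genes tested; 1 member had an unadjusted p under 0.05, and DESeq2 also called 0. Their median log2 difference was -0.20 and 7 of 41 lay above 0, against a median of -0.02 over all genes. Isg15, the ubiquitin-like protein that is attached to other proteins after interferon, had the smallest p. It measured 3.90, 4.84, 3.49 and 5.70 CPM in NC and 2.94, 2.94, 1.46 and 1.66 CPM in ALL, without overlap, a difference of -1.0 ± 0.35 (adjusted p = 0.864). Ifi27 followed at -0.45 ± 0.22 and Gbp4 at -0.86 ± 0.45 (adjusted p = 1 for both). In 4 members (Isg15, Oas3, Ifi27 and Gbp5) the ALL libraries all lay under the NC libraries, as did 5.49% of all genes.

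All signalling genes rose on the TMM scale. Irf1, Irf7, Irf9, Stat2 and Usp18 rose in all 3 drug comparisons (5 of 5 each, medians 2.83, 2.16 and 2.13). Irf1, the factor of the gamma arm, measured 1.46, 2.37, 1.16 and 1.28 CPM in NC and 0.762, 1.32, 1.56 and 1.43 in ALL. In treated mice it measured 13.5, 10.9, 8.85 and 11.3 CPM in VCR. Low-VCR gave 9.45, 7.28, 9.45 and 9.15, and High-VCR 12.7, 6.75, 10.3 and 12.2. Every treated library lay above every untreated one. Such separation was common: within VCR against NC, Low-VCR against ALL and High-VCR against ALL it held for 38, 37 and 37 of 41 members. Of all genes tested, 39.7, 35.0 and 40.9% showed it. The rise was 2.83 ± 0.26 in VCR (7.11-fold, adjusted p = 6.92e-08), 3.03 ± 0.26 in High-VCR (6.98e-08) and 2.79 ± 0.26 in Low-VCR (9.57e-07). Stat2, which carries the type I signal with IRF9, measured 11.9, 11.9, 13.4 and 17.1 CPM in NC and 10.4, 14.8, 10.6 and 15.3 in ALL. It reached 147, 117, 63.3 and 78.6 CPM in VCR, while Low-VCR gave 54.0, 58.2, 52.4 and 64.5, and High-VCR 80.4, 37.5, 68.1 and 94.5. Its treated libraries again lay above all untreated ones, with rises of 2.90 ± 0.28, 2.16 ± 0.28 and 2.45 ± 0.28 (adjusted p = 1.31e-07, 6.73e-06 and 7.79e-07). Irf7, which amplifies interferon production, went from 5.14 to 8.70 CPM in NC to 32.7 to 59.0 CPM in VCR (2.87 ± 0.30, adjusted p = 2.47e-07). Usp18, which removes ISG15 and brakes the type I receptor, went from 2.80 to 3.83 CPM in NC to 14.2 to 28.9 CPM in VCR. The brake and the factors it opposes were thus both higher on the TMM scale. With libraries scaled instead on macrophage genes other than Aif1 and Msr1, all 5 lay below 0 in VCR (Irf1 at -0.0086, Stat2 at -0.031 and Irf7 at -0.029), 4 of 5 in High-VCR and 1, Irf9, in Low-VCR.

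The nucleic acid sensors did not move as one. Ifih1 (MDA5), a sensor of long double-stranded RNA, measured 3.10 to 6.23 CPM in NC and 3.31 to 4.96 in ALL, against 24.0 to 49.9 in VCR, 17.5 to 34.9 in High-VCR, and a narrow 22.8 to 24.4 in Low-VCR. It rose by 2.76 ± 0.26, 2.47 ± 0.26 and 2.75 ± 0.27 (adjusted p = 1.01e-07, 1.52e-06 and 1.38e-07), and was at -0.15 in VCR on macrophage genes other than Aif1 and Msr1. Zbp1, a sensor of Z-form nucleic acid that can start necroptosis, rose by 1.53 ± 0.24 in VCR (adjusted p = 2.03e-05) and 1.01 ± 0.24 in High-VCR (0.00128), and these differences turned negative when libraries were scaled on endothelial, macrophage or Sertoli genes (-0.12, -0.67 and -0.77 in VCR). Dhx58 (LGP2), a helicase that modulates the other RNA sensors, measured 84.5, 87.6, 80.7 and 83.5 CPM in NC and 79.1, 77.8, 92.8 and 91.4 in ALL. It measured 59.8, 65.4, 75.0 and 69.8 CPM in VCR. Low-VCR gave 55.8, 56.1, 53.3 and 66.7 CPM, and High-VCR 46.4, 86.0, 50.0 and 50.6. Only High-VCR 2 reached the untreated range. Dhx58 fell in Low-VCR (-0.56 ± 0.16, adjusted p = 0.00747) and High-VCR (-0.55 ± 0.16, 0.00499), and in VCR the difference of -0.32 ± 0.16 did not pass (0.0752). With library size alone as the scale neither call held (adjusted p = 0.0758 and 0.0774) and the VCR difference was 0.07.

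The IFIT, OAS and ISG15 genes, which bind or tag foreign RNA and protein or make the oligoadenylates that activate RNase L, rose in 10 of 10 cases in VCR and 9 of 10 in both engrafted comparisons, with medians of 2.99, 2.39 and 2.56; Oas3 and Oasl1 were negative in each of the 3 comparisons on the endothelial, macrophage and Sertoli scales. Isg15 reached 54.9, 38.7, 31.8 and 28.7 CPM in VCR. Levels in High-VCR were 27.1, 11.03, 21.4 and 33.6 CPM, and those in Low-VCR 18.3, 20.5, 21.6 and 27.7. All lay above the untreated values given earlier. Against their controls, VCR, Low-VCR and High-VCR differed by 3.09 ± 0.32, 3.29 ± 0.34 and 3.37 ± 0.34 (adjusted p = 2.45e-07, 1.28e-06 and 2.15e-07). Ifit1, which binds RNA lacking a host cap, went from 1.07 to 2.05 CPM in NC to 13.3 to 23.7 in VCR (3.39 ± 0.35, 10.5-fold, adjusted p = 2.42e-07). Oas1a, a synthetase, went from 2.56 to 4.74 CPM in NC to 18.9 to 34.4 in VCR (2.88 ± 0.29, 1.81e-07) and rose by 2.43 ± 0.30 in Low-VCR (4.03e-06). Oasl2, an OAS-like protein, rose by 2.44 ± 0.28 in High-VCR (6.60e-07), where it was at -0.13 on macrophage genes other than Aif1 and Msr1. Oas3, a synthetase as well, had 9.41 to 11.2 CPM in NC and 13.7 to 17.8 in VCR, a rise of 0.68 ± 0.12 (6.88e-05) on the TMM scale that was -0.97 on the endothelial and -1.51 on the macrophage scale. Oasl1 was at most 1.46 CPM in untreated and 4.10 CPM in treated libraries, and its differences in Low-VCR (0.75 ± 0.37) and High-VCR (0.66 ± 0.36) did not pass (adjusted p = 0.0910 and 0.109).

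Among the other antiviral effectors 4 of 5 rose in each drug comparison (medians 3.29, 2.26 and 2.81), and Mx1 did not pass in any. Bst2 (tetherin), which holds budding virus at the cell surface, measured 12.4, 17.1, 9.89 and 17.3 CPM in NC and 15.2, 14.4, 8.79 and 11.9 in ALL. It measured 201, 136, 101 and 115.6 CPM in VCR. Low-VCR gave 60.0, 73.3, 69.9 and 75.1 CPM, and High-VCR 117, 56.6, 78.5 and 99.4. The treated values were all above the untreated ones, and the 4 Low-VCR values all below the VCR values. Bst2 rose by 3.29 ± 0.27 (9.75-fold, adjusted p = 3.79e-08), 2.47 ± 0.26 (1.46e-06) and 2.81 ± 0.27 (1.14e-07). Rsad2 (viperin), an enzyme that makes a chain-terminating nucleotide, was at 0.097 to 0.487 CPM in NC, 8 counts in all, and at 3.65 to 5.71 CPM in VCR; High-VCR had 1.56 to 4.47 and Low-VCR 1.53 to 3.86. Its rise of 4.59 ± 0.47 in VCR (24.0-fold, adjusted p = 1.75e-07) rests on those few control counts, and it rose by 3.23 ± 0.45 in Low-VCR (1.40e-05). Trim30a rose by 2.98 ± 0.36 in High-VCR (1.25e-06). Mx1, a dynamin-like GTPase of which many laboratory strains carry a defective allele, measured 2.31, 1.18, 0 and 1.20 CPM in NC and 3.96, 3.11, 0.984 and 1.90 CPM in VCR. These overlap, with differences of 1.10 ± 0.57 in VCR, 0.54 ± 0.59 in Low-VCR and, for High-VCR, 0.11 ± 0.60 (adjusted p = 0.0876, 0.431 and 0.865) that were negative on the cell-type scales.

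The IFI, PARP and XAF1 genes rose in 7 of 7 cases in each comparison (medians 2.72, 2.14 and 2.50). Ifi27, which encodes a mitochondrial protein, measured 33.4 to 43.8 CPM in NC and 24.8 to 29.2 in ALL, against 139 to 272 in VCR, 107 to 221 in High-VCR and 94.7 to 133 in Low-VCR. It rose by 2.45 ± 0.23, 1.99 ± 0.23 and 2.50 ± 0.23 (adjusted p = 8.73e-08, 2.35e-06 and 9.46e-08). Parp14, an ADP-ribosyltransferase, measured 3.53 to 7.21 CPM in NC and 26.9 to 42.0 in VCR, and rose by 2.69 ± 0.24, 2.14 ± 0.24 and 2.60 ± 0.24 (6.08e-08, 2.06e-06 and 1.02e-07). On the endothelial and macrophage scales no gene of this role list was below 0 in any of the 3 comparisons, but without Aif1 and Msr1 in the macrophage list 5 of 7 were below 0 in VCR, 4 in High-VCR and 1 in Low-VCR. There Ifi27 was at -0.45 and Parp14 at -0.18 in VCR, and on Sertoli genes Ifi27 was at -0.039 in Low-VCR.

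Guanylate-binding proteins assemble on the membranes around intracellular microbes, and 6 of 7 rose in each drug comparison. Gbp2 measured 0.487, 1.51, 0.873 and 0.900 CPM in NC and 1.09, 1.32, 0.977 and 1.66 in ALL. It measured 18.8, 16.7, 12.1 and 12.4 CPM in VCR. Low-VCR gave 10.97, 7.97, 7.28 and 10.9 CPM, and High-VCR 12.7, 8.18, 12.2 and 17.6, so each treated value lay above the untreated ones. Gbp2 rose by 3.97 ± 0.31 (15.7-fold, adjusted p = 3.45e-08), 2.88 ± 0.30 (1.19e-06) and 3.33 ± 0.30 (7.48e-08), and kept a positive difference on every scale tried. Gbp6 went from 2.04 to 3.29 CPM in NC to 10.4 to 15.6 in VCR and rose by 2.34 ± 0.22, 2.28 ± 0.22 and 2.44 ± 0.22 (9.26e-08, 1.07e-06 and 9.03e-08); it was negative in VCR and High-VCR on the macrophage scale once Aif1 and Msr1 were left out. Gbp3 rose by 3.27 ± 0.33 in Low-VCR (1.15e-06).

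The IRG GTPases, which act on the same membranes, rose in 4 of 4 cases in each comparison (medians 3.24, 2.75 and 3.01). Irgm1, a regulator of the family, measured 3.17, 6.35, 3.59 and 4.95 CPM in NC and 3.26, 3.64, 2.64 and 3.31 in ALL. It measured 56.5, 34.4, 25.5 and 27.4 CPM in VCR. Levels in High-VCR were 35.5, 14.3, 26.9 and 36.7 CPM, and those in Low-VCR 27.2, 24.8, 18.6 and 28.5. No treated library overlapped the untreated ones, and the rises were 2.99 ± 0.32, 2.94 ± 0.32 and 3.14 ± 0.33 (adjusted p = 2.89e-07, 1.80e-06 and 2.76e-07). Iigp1, an effector that loads onto the vacuole, was at 0.291 to 0.525 CPM in NC, 17 counts in all, and at 3.41 to 9.52 CPM in VCR. It rose by 3.75 ± 0.43 (13.4-fold, 5.64e-07), 3.36 ± 0.44 (8.32e-06) and 3.36 ± 0.44 (3.48e-06). On the endothelial, macrophage and Sertoli scales all 4 IRG genes kept a positive difference in each comparison; with Aif1 and Msr1 left out of the macrophage list, Igtp turned negative in VCR and High-VCR.

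**Figure D2:**
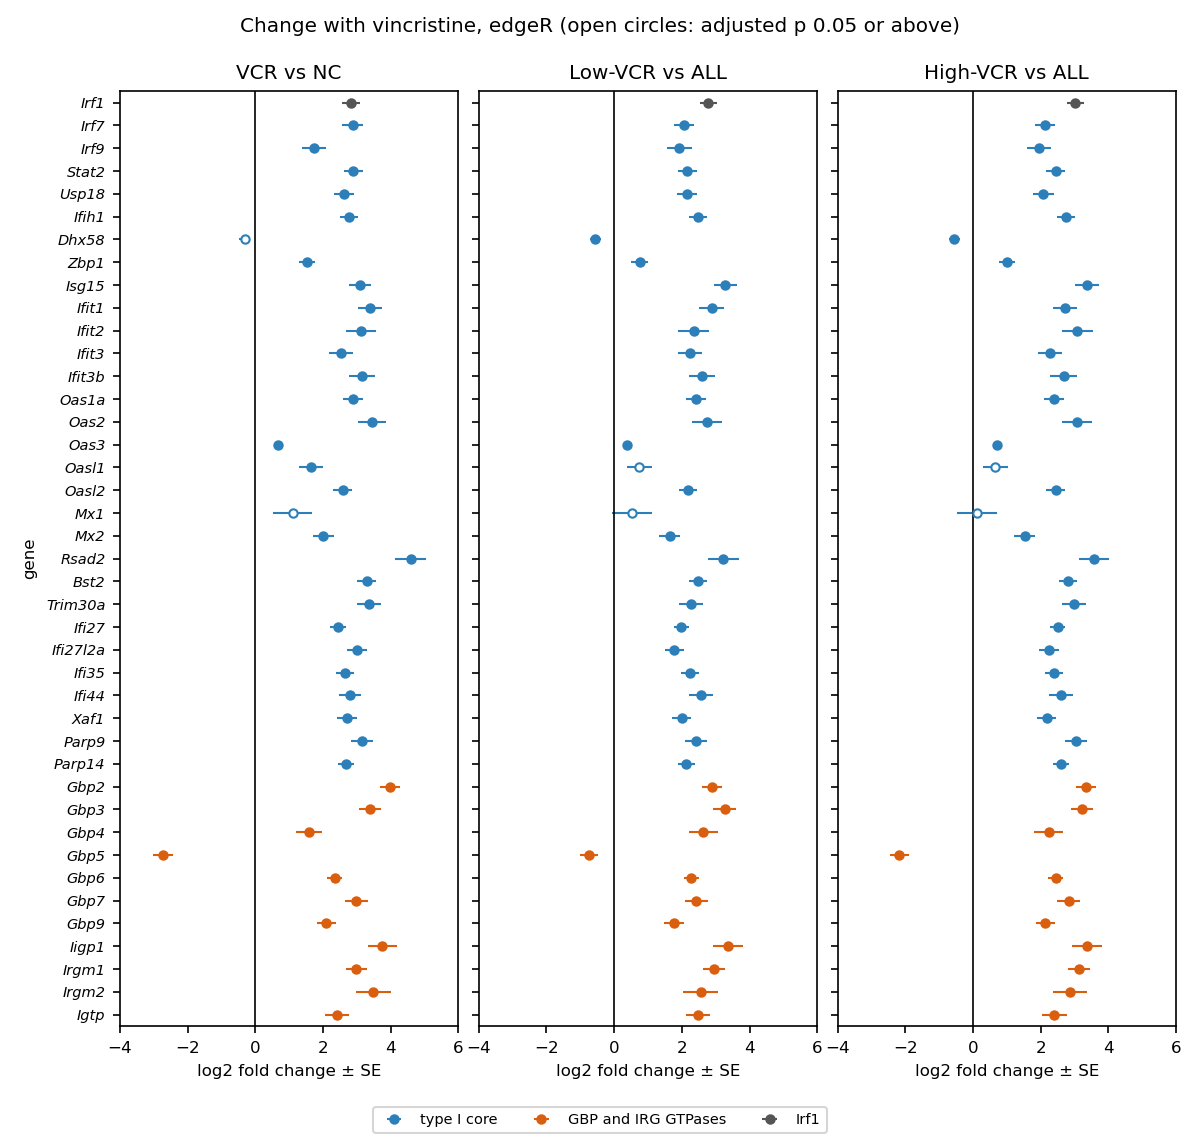
Log2 fold change ± SE of each gene in VCR against NC, Low-VCR against ALL and High-VCR against ALL, by edgeR on TMM-scaled counts with 4 libraries per group. Filled circles passed the adjusted p threshold of 0.05. Most genes sit between 1.5 and 4, and Gbp5 lies to the left in each panel. Dhx58, Oas3 and Mx1 lie closer to 0, as do Oasl1 and Zbp1 in the engrafted comparisons.

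Gbp5 was the exception. It measured 306, 247, 243 and 222 CPM in NC and 184, 187, 192 and 212 in ALL. In treated mice it measured 30.2, 33.7, 34.4 and 54.5 CPM in VCR. High-VCR gave 36.0, 46.0, 55.3 and 34.8 CPM, and Low-VCR 166, 86.2, 156 and 55.2. VCR and High-VCR libraries lay far below the untreated ones, and Low-VCR spread between them, with libraries 1 and 3 highest. Gbp5 fell by 2.73 ± 0.29 in VCR (6.66-fold, adjusted p = 3.05e-07) and by 2.17 ± 0.29 in High-VCR (4.50-fold, 3.61e-06), in every setting and with any 1 library left out. Its fall of 0.74 ± 0.28 in Low-VCR (0.0326) did not pass without Low-VCR 2 or 4 or without any 1 of the ALL libraries (adjusted p = 0.0502 to 0.0906), nor with library size alone (0.172), only both groups in the fit (0.0648) or the library number range as a term (0.0552). Round spermatid genes were also lower in treated mice: the summed level of 12 such genes was 3818 to 4018 CPM in NC and 3852 to 4201 in ALL, 44.3 to 1062 in VCR, 795 to 1479 in High-VCR and 1625 to 2255 in Low-VCR. All 12 fell in VCR, 11 in High-VCR and 6 in Low-VCR; their part in the Gbp5 result was not tested. The mean log2 level of that list in Low-VCR, relative to NC, was -0.90, -1.95, -0.75 and -2.64 in libraries 1 to 4, so the Low-VCR libraries highest in Gbp5 were also the highest in spermatid genes. Elsewhere the match was looser. In ALL the list was at -0.019 relative to NC, while Gbp5 lay under its NC values. The list was at -4.32 in VCR and -3.23 in High-VCR, where Gbp5 averaged 38.2 and 43.0 CPM.

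**Figure D3:**
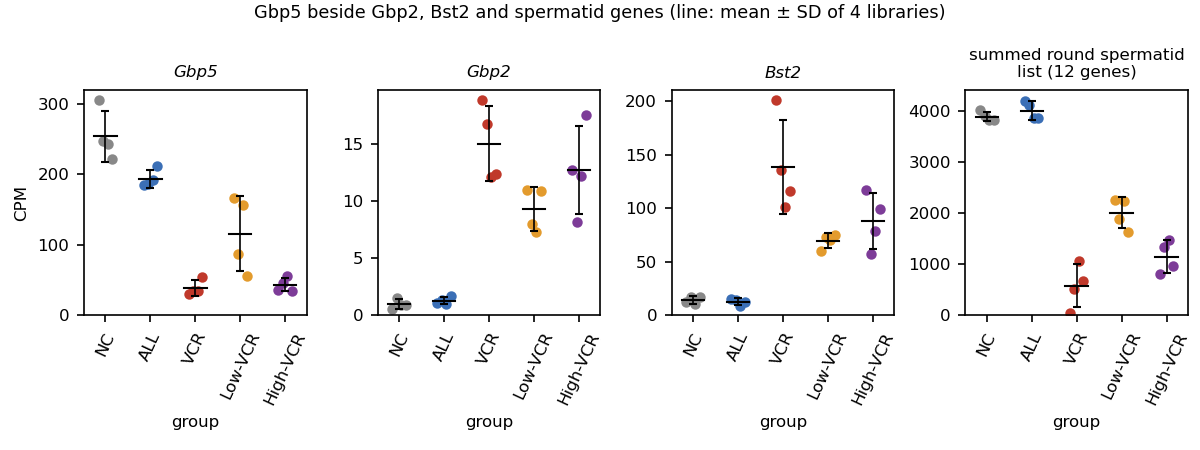
CPM of Gbp5, Gbp2 and Bst2 and the summed CPM of 12 round spermatid genes, by group, with 1 point per library and the mean ± SD of 4. Gbp5 and the spermatid genes are high in NC and ALL and lowest in VCR, and Gbp2 and Bst2 run the other way.

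Set beside the core, the GTPases had slightly larger fold changes. Their median was 2.99 against 2.76 for the core in VCR (10 of 11 rose against 27 of 29), 2.55 against 2.18 in Low-VCR (10 of 11 against 26 of 29), and 2.83 against 2.44 in High-VCR (10 of 11 against 26 of 29). The gaps of 0.23, 0.38 and 0.39 are descriptions, and over all alternatives they ran from 0.12 to 0.30, 0.12 to 0.48 and 0.29 to 0.42. List scores, the mean log2 CPM of a list in a library relative to NC, gave another order in VCR. There the GTPase score, which includes Gbp5, was 2.78, 2.43, 2.07 and 2.22 and the core score 2.99, 2.69, 2.24 and 2.25. In Low-VCR the GTPase score was 2.53, 1.96, 1.80 and 2.20 and the core score 1.81, 1.65, 1.73 and 2.00; in High-VCR they were 2.42, 1.30, 2.20 and 2.45 against 2.24, 1.18, 2.01 and 2.33. The GTPase score minus the core score was -0.165 ± 0.0996 (SD, n = 4) in VCR, 0.150 ± 0.0348 in High-VCR and 0.325 ± 0.283 in Low-VCR. It was thus below 0 in all 4 VCR libraries and above 0 in all 8 libraries of engrafted, treated mice, while NC ran from -0.157 to 0.118. ALL ran from -0.0408 to 0.245, a range that holds all 4 High-VCR values and 2 of the 4 Low-VCR values. Gbp5 lowered the GTPase score in treated libraries, with a log2 difference of -2.73 in VCR against NC. The 4 IRG genes, a list without Gbp5, had a mean score of 3.17 in VCR, against 2.54 for the core. The 7 guanylate-binding proteins, Gbp5 among them, had 1.92. A score of all GTPases without Gbp5 was not computed, so the negative VCR values cannot be assigned to the other GTPases.

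Macrophage genes rose as well. Of 20 macrophage and monocyte genes 18 rose and 2, Aif1 and Msr1, fell in VCR (median 3.24), and their summed level was 272 to 295 CPM in NC and 1032 to 1589 in VCR. All 10 Leydig genes rose in VCR (median 2.68), where their summed level went from 1336 to 2102 CPM in NC to 7333 to 16324. The Leydig score relative to NC was 2.65 in VCR, 1.80 in Low-VCR and, for High-VCR, 2.39, against 2.54, 1.80 and 1.94 for the core; the part of Leydig cells in the results was not tested. Of 18 endothelial genes 15 rose and 1 fell (median 1.83), and of 18 Sertoli genes 17 rose (median 1.97). In list scores the core lay below the macrophage list by 0.173 ± 0.112 (SD, n = 4) in VCR, as a core minus macrophage score of -0.173, and by a score difference of -0.569 ± 0.156 in High-VCR; in Low-VCR the difference was -0.0603 ± 0.356. The GTPase minus macrophage score was -0.339 ± 0.113, -0.419 ± 0.159 and 0.265 ± 0.500 in the same groups. The macrophage score includes Aif1 (-2.20 in VCR against NC) and Msr1 (-2.23), which lower it in VCR. A score without both genes was not computed. Against the endothelial list the core score was higher by 0.581 ± 0.229 in VCR and 0.313 ± 0.148 in Low-VCR, and for High-VCR the difference was 0.0230 ± 0.343.

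**Figure D4:**
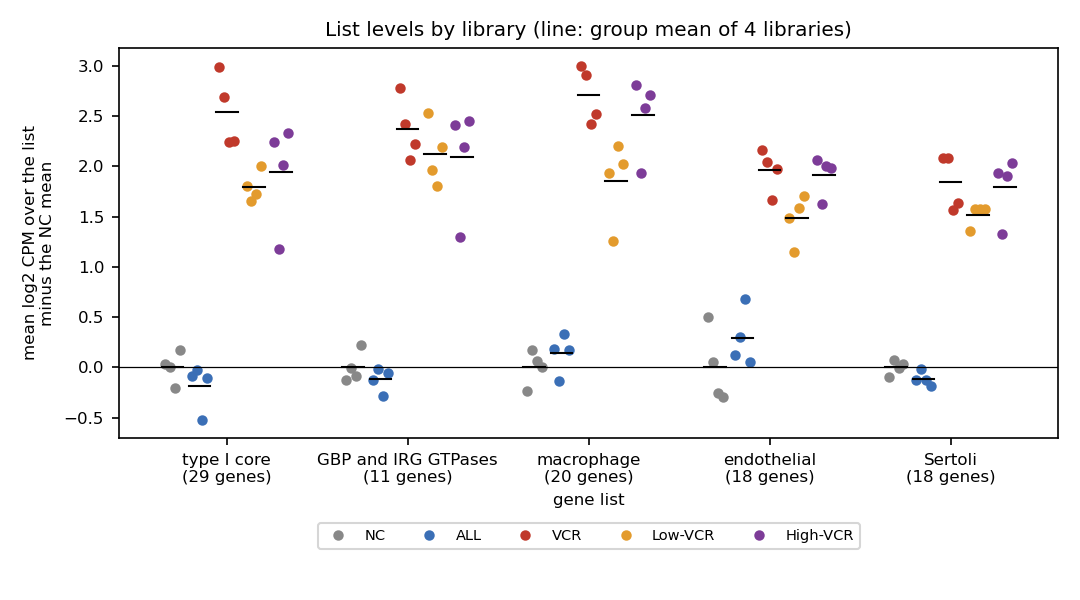
Mean log2 CPM over each list minus the NC mean, by library and group, on the TMM scale. In VCR and High-VCR the macrophage list is as high as or higher than both interferon lists, and the endothelial list is lower than the core in VCR. The macrophage list includes Aif1 and Msr1, which fell in VCR and lower its level there.

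Scaling the libraries on the summed counts of another list asks what is left relative to that cell type. Relative to endothelial genes 31 members rose and 3 fell in VCR (median 1.16), where 10.2% of all genes rose and 70.9% fell. In Low-VCR 35 rose and 3 fell (median 1.40; of all genes 14.6% rose and 55.8% fell), and in High-VCR 32 rose and 5 fell (1.06; 14.1% and 64.1%). Of these, 31 rose in all 3 comparisons, and Dhx58, Gbp5 and Oas3 fell in all 3. Relative to all 20 macrophage genes 24 members rose and 4 fell in VCR (0.60; 4.29% and 80.4% of all genes), 31 rose and 4 fell in Low-VCR (0.86; 5.89% and 70.9%), and 23 rose and 6 fell in High-VCR (0.55; 6.05% and 74.2%). That result rested on Aif1 and Msr1. Aif1 alone had 88.05 to 105.2 CPM in NC, where the whole list summed to 272 to 295, and 8.69 to 33.1 in VCR. Without both genes, an alternative added after the data were seen, 4 members rose and 12 fell in VCR (median -0.06), 11 rose and 6 fell in Low-VCR (0.29), and 7 rose and 8 fell in High-VCR (-0.09), while of all genes 1.18, 1.32 and 1.36% rose and 89.5, 83.2 and 85.8% fell. The members that still rose in all 3 were Gbp2, Gbp3, Iigp1 and Rsad2, and those that fell in all 3 were Dhx58, Gbp5, Mx1, Oas3, Oasl1 and Zbp1. On that scale the GTPase and core medians were 0.10 and -0.15 in VCR, 0.27 and -0.13 in High-VCR, and 0.58 and 0.19 in Low-VCR. Relative to Sertoli genes 20 rose and 5 fell in VCR (0.50; 3.50% and 82.3% of all genes), 9 and 7 in High-VCR (0.09; 2.18% and 82.8%), and 11 and 6 in Low-VCR (0.29; 1.28% and 84.0%). On these scales the median log2 difference of all genes lay between -2.73 (VCR, macrophage list without both genes) and -0.81 (Low-VCR, endothelial list).

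**Figure D5:**
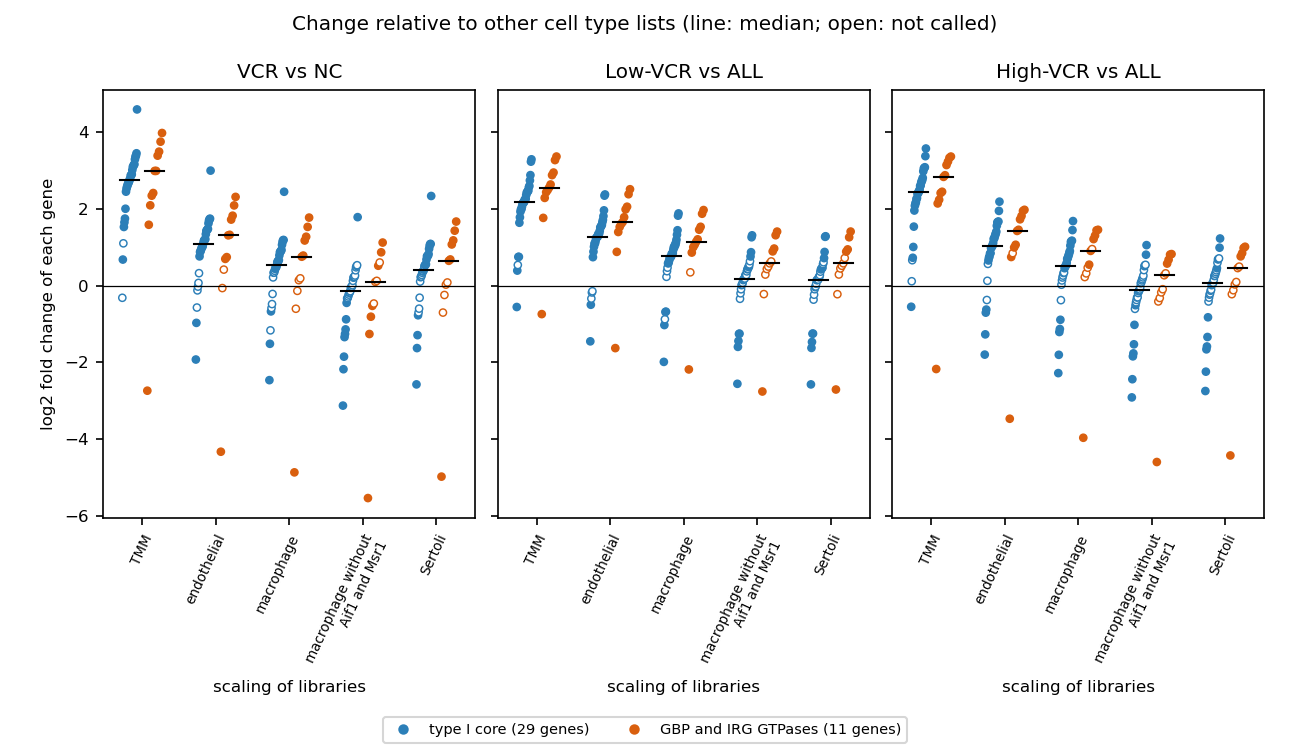
Log2 fold change of each core gene and GTPase with libraries scaled on all genes (TMM) or on an endothelial, macrophage or Sertoli list, and on the macrophage list without Aif1 and Msr1. Lines are medians and open circles did not pass; medians are over 2 on TMM and nearest 0 on the macrophage list without Aif1 and Msr1 and on the Sertoli list, and the GTPase line stays above the core line in each pair.

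Between high and low leukaemia burden under the drug, Gbp5 was the only member called, and the call did not hold in every setting. Its libraries overlapped, at most 55.3 CPM in High-VCR and at least 55.2 CPM in Low-VCR. In High-VCR against Low-VCR 1 of 41 members was called, against 7.81% of all genes (3.13% higher, 4.69% lower): Gbp5 was lower in High-VCR by a log2 difference of -1.43 ± 0.28 (2.69-fold, adjusted p = 0.0215), which did not pass without Low-VCR 1 or 3 or High-VCR 1 or 4 (adjusted p = 0.0678, High-VCR 1, to 0.0844, High-VCR 4) or with only both groups in the fit (0.0748). Oas3 (0.33 ± 0.12, adjusted p = 0.0827) and Ifi27 (0.51 ± 0.22, 0.136) did not pass. High-VCR 2 was the lowest of its group in 39 of 41 genes; without it 4 members were higher and 1 lower, against 12.5% and 6.83% of all genes.

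In the fit of all groups, part of the members were lower in Low-VCR than in VCR, whose labels name no injected cells. In Low-VCR against VCR 19 members were lower and 1, Gbp5, higher, against 13.6% and 16.7% of all genes (30.2% called in all). Ifi27l2a measured 67.8, 58.6, 39.3 and 41.5 CPM in VCR and 18.8, 24.0, 17.8 and 24.0 in Low-VCR, without overlap (-1.29 ± 0.27, adjusted p = 0.00467). The Low-VCR libraries all lay under the VCR libraries in 15 of 41 members and in 11.5% of all genes. Ifi27 (-0.91 ± 0.22, 0.00819), Bst2 (-0.99 ± 0.25, 0.00944), Irf7 (-1.09 ± 0.28, 0.0106) and Stat2 (-0.82 ± 0.26, 0.0277) were lower as well, and Gbp5 was higher by 1.60 ± 0.28 (0.00282). Of the core 18 of 29 were lower and of the GTPases only Gbp2 (-0.69 ± 0.25, 0.0428); whether both sets differ was not tested. Gbp2 and Stat2 did not pass without VCR 1 or 2 or Low-VCR 1, 2 or 3 (adjusted p = 0.0561 to 0.131 for Gbp2 and 0.0626 to 0.111 for Stat2), nor on the endothelial, macrophage or Sertoli scale; Gbp2 also did not pass with the replicate block (0.0513) or without a gene filter (0.0647). Bst2 did not pass on any of those 3 scales either, nor Ifi27 and Irf7 on the endothelial and macrophage ones. Of the Leydig genes 8 of 10 were lower as well and of the round spermatid genes 10 of 12 higher, and their part in these differences was not tested. Of the macrophage genes 15 of 20 were lower too, and scaled on them 2 members were lower and 1 higher, against 0.484% and 34.0% of all genes. Without VCR 1, the highest VCR library for 36 of 41 genes, 7 members were called (18.4% of all genes), and without VCR 2 there were 8 (14.8%). Without Low-VCR 1, 2 or 3 the counts were 9, 8 and 10 (17.8%, 21.2% and 21.1% of all genes). With only both groups in the fit edgeR called 0, and 0.00631% of all genes. In High-VCR against VCR edgeR and DESeq2 called none of the 41 (0.00605% of all genes by edgeR), with 11 at an unadjusted p under 0.05. The smallest p there belonged to Irf7 (-1.01 ± 0.28, adjusted p = 0.429), Oasl1 (-1.0 ± 0.33, 0.458) and Ifi27l2a (-0.81 ± 0.27, 0.458).

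Whether the drug difference in Low-VCR or High-VCR against ALL differed from that in VCR against NC was tested as an interaction. For Low-VCR 1 member was called, against 5.07% of all genes (3.81% higher, 1.26% lower): the response of Gbp5 relative to ALL was higher by 1.99 ± 0.39 than that of VCR relative to NC (adjusted p = 0.0261). It did not pass with the replicate number as a block (1.93, adjusted p = 0.0660), on the Sertoli scale (0.0662) or without any 1 of 9 libraries, among them all 4 of ALL (adjusted p = 0.0508 to 0.0650 over the 9). Ifi27l2a (-1.23 ± 0.40, 0.0752) and Gbp2 (-1.10 ± 0.42, 0.120) did not pass. For High-VCR edgeR and DESeq2 called no member (0.00605% of all genes by edgeR); Oasl1 (-0.99 ± 0.51), Ifi27l2a (-0.75 ± 0.40) and Irf7 (-0.74 ± 0.41) had the smallest p (adjusted p = 0.970 each).

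The rest of the pathway moved in part. The counts below are for VCR against NC, where 42.1% of all tested genes rose and 35.6% fell. Of 13 ligand genes only Ifnl3 passed the count filter, and its difference of 1.15 ± 0.81 in VCR did not pass (adjusted p = 0.202). Ifnb1 had no count outside VCR 3, where it had 2, and Ifng did not exceed 0.153 CPM in any library, below the level of 3 counts. All 10 receptor and JAK-STAT genes described here rose in VCR (median 1.99), among them Il10rb (2.24 ± 0.19), a shared chain of the lambda receptor, and Ifngr2 (1.86 ± 0.16), a chain of the gamma receptor; Ifngr2 turned negative on the macrophage and Sertoli scales, as did Il10rb on the Sertoli scale. On macrophage genes other than Aif1 and Msr1, Il10rb (-0.63), Mavs (-0.47), Unc93b1 (-0.29) and Socs3 (-0.48), the last 3 described next, were also below 0 in VCR. Of 17 tested genes that lead to interferon production 14 rose (median 2.01), including Mavs (2.42 ± 0.20), the mitochondrial adaptor of the RNA sensors, and Unc93b1 (2.60 ± 0.22), a chaperone of nucleic acid sensing Toll-like receptors. Of 6 feedback inhibitors 2 rose, including Socs3 (2.37 ± 0.33), a blocker of JAK signalling, and 1 fell, Pias1 (-2.43 ± 0.25), an inhibitor of STAT signalling. Of 46 other interferon-stimulated genes 37 rose and 4 fell (median 2.18), with Ifitm2 at 3.07 ± 0.25 and Ube2l6, the ISG15-conjugating enzyme, at 3.54 ± 0.29. Isg20, an exonuclease, was among those that fell: it measured 47.0 to 51.7 CPM in NC and 0.99 to 10.8 in VCR (-3.02 ± 0.40, adjusted p = 3.46e-06), against 7.53 to 11.8 in High-VCR and 15.46 to 26.3 in Low-VCR.

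Marker lists of T and natural killer cells and of plasmacytoid dendritic cells were at low summed levels. Other cell types that can make interferons are not covered by these lists, and macrophage levels are given above. For T and natural killer cells, makers of interferon gamma, the summed level of 12 genes was 12.9 to 17.6 CPM in NC and 6.16 to 10.5 in VCR, Prf1 was at 0 in all libraries, and Gzmb had 1 count in all, in ALL. The tested genes of that list did not move as one in VCR against NC. Cd4 rose (2.14 ± 0.35), Cd3d (-2.73 ± 0.47) and Cd2 (-2.51 ± 0.41) fell, and Lck did not pass. For plasmacytoid dendritic cells, makers of type I interferon, the summed level of 7 genes was 11.5 to 17.7 CPM in NC and 22.0 to 35.0 in VCR, and of the 5 tested 2 rose and 3 fell, against 42.1% and 35.6% of all genes. Klk1 (1.86) and Tcf4 (1.82) rose, and Siglech (-2.03), Cox6a2 (-1.21) and Pacsin1 (-1.96) fell. The mean log2 level of the list in VCR was 0.016 relative to NC. The part of these cells in the results was not tested.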

How the data were processed

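RNA of 20 testis samples was sequenced from oligo-dT selected, strand-marking libraries, per the labels' protocols. The deposited table holds unnormalised counts, whole numbers for each gene symbol. Trimmomatic 0.39, STAR 2.7.10b, Subread 2.0.3 with featureCounts, DESeq2 1.36.0 and the build GRCm39 are named per the submitters' processing notes; the annotation, the strand setting and any removal of human reads are not given in the sources used here. Families of close copies (Ifit3 and Ifit3b, the GBPs, the IRGs) carry the uncertainty of how shared reads were divided.

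Tests used edgeR 4.0.16 under R 4.3.3. Of 22066 symbols, 1207 had no count and 16534 passed filterByExpr (minimum count 10). One robust quasi-likelihood fit of 5 group means (TMM, 15 residual degrees of freedom) gave all comparisons, with Benjamini-Hochberg adjustment over all genes tested. It was also run on simulated data in which few genes changed, which cannot show how it performs where most genes change, as here. Scores are mean log2 CPM with a prior count of 1. DESeq2 1.42.0, other scalings and filters, a replicate block, a library number term and leaving out each library were alternatives.

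The members and gene lists were chosen with earlier results of these data known. Tests are printed for the 2 called members of smallest adjusted p in each of 7 role lists per drug comparison, the 3 members of smallest p in the other comparisons, members called against the others, and the 2 of smallest p in VCR in each of 5 pathway lists. Chosen after their values were seen were Dhx58, Mx1, Isg15, Irf7, Oas3 and Isg20 in VCR, Oasl1, Mx1 and Gbp2 in Low-VCR against ALL, Oasl1 and Mx1 in High-VCR against ALL, and Gbp2, Bst2, Irf7 and Stat2 in Low-VCR against VCR. The T and natural killer cell and plasmacytoid dendritic cell genes given with a log2 difference were also chosen after their values were seen. Members named only by level have no test printed. Promoters come from RefSeq on GRCm38.p6, matched by symbol, while the counts use GRCm39. One gene of the receptor and JAK-STAT list is not reported here. Of the induction list 3 of 20 symbols were not in the table.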

Additional observations from a re-analysis of the deposited data

Results flagged for a closer look

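In groups of 4 libraries, a single value stood apart from the other 3 (gap over range above Dixon's 95% value) in 15 of 205 gene and group combinations, or 7.32%; chance gives about 1 in 20. In VCR 1 the high values were Zbp1 at 10.4 CPM, Ifit1 at 23.7 CPM, Trim30a at 25.1 CPM and Irgm2 at 11.6 CPM. High-VCR 2 was low in Ifit3b (2.34 CPM) and Parp14 (19.6 CPM) and high in Dhx58 (86.0 CPM). In Low-VCR, library 2 was low in Irf1 (7.28 CPM) and library 4 high in Usp18 (16.8 CPM). In ALL, library 3 was low in Ifi27 (24.8 CPM) and Ifi35 (4.20 CPM), and Irf9 in library 4 (10.5 CPM), Oas1a in library 1 (3.81 CPM) and Xaf1 in library 2 (6.28 CPM) were high. Rsad2 in NC 1 (0.487 CPM) was 4 counts.

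The drug response of Gbp5 differed between Low-VCR relative to ALL and VCR relative to NC by 1.99 on the log2 scale in edgeR's interaction test. It did not pass in 11 of 25 alternative settings, and 5.07% of all genes were called in that test. Round spermatid values are given beside Gbp5 above.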

How the results depend on the processing

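The 3 counts of members that changed with the drug were within 1.5 times of the reported 39 under DESeq2, DESeq2 size factors, library size alone, no gene filter, only the groups compared, the replicate block and with any 1 library left out. Scaling on cell-type lists changed them. On Sertoli genes 25, 17 and 16 members were called in VCR, Low-VCR and High-VCR. On macrophage genes without Aif1 and Msr1, 16, 17 and 15 were called and the balance turned to lower in VCR and High-VCR; on Sertoli genes without Clu, 25 were called in High-VCR. These last scales and the endothelial list without Sox17 were chosen after seeing the data. In High-VCR against Low-VCR 2 members were called on macrophage genes, 0 with only both groups, and 0 to 5 with 1 library left out. In Low-VCR against VCR 5, 3 and 2 were called on Sertoli, macrophage and endothelial genes, 13 without a gene filter, 0 with only both groups, and 7 to 24 with 1 library left out. The Low-VCR interaction gave 0 members on Sertoli, 4 on macrophage and 3 on endothelial genes, 2 by DESeq2, and 0 to 2 with 1 library left out. The cause was not tested.

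Log2 differences that turned in VCR against NC, on Sertoli, macrophage and endothelial genes in that order, were Zbp1 (-0.77, -0.67, -0.12), Ifnl3 (-1.07, -0.978, -0.46), Mx1 (-1.29, -1.16, -0.57) and Oas3 (-1.63, -1.51, -0.97). On Sertoli and macrophage genes Ifngr2 (-0.47, -0.36) turned, and on Sertoli genes Il10rb (-0.078). In Low-VCR against ALL, in the same order of 3 lists, Oasl1 (-1.25, -0.69, -0.18) and Mx1 (-1.47, -0.87, -0.34) turned, and Ifi27 on Sertoli genes (-0.039). In High-VCR against ALL Zbp1 (-1.34, -0.89, -0.37), Oasl1 (-1.66, -1.21, -0.70) and Mx1 (-2.24, -1.80, -1.27) turned. Mx1 there was also -0.053 with DESeq2 size factors, -0.054 by DESeq2 and -0.13 with only both groups, and ran from -0.0085 (without High-VCR 1) to 0.33 (without High-VCR 2) with 1 library left out. Oas3 in High-VCR against Low-VCR was -0.10 on macrophage and -0.12 on endothelial genes. Dhx58 in VCR was 0.070 with library size alone.

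On macrophage genes without Aif1 and Msr1, the differences in VCR were Irf1 -0.0086, Stat2 -0.031, Irf7 -0.029, Ifih1 -0.15, Zbp1 -1.34, Parp14 -0.18, Ifi27 -0.45, Gbp6 -0.53, Ifnl3 -1.63, Il10rb -0.63, Ifngr2 -1.02, Socs3 -0.48, Mavs -0.47, Unc93b1 -0.29, Mx1 -1.85 and Oas3 -2.18. In Low-VCR they were Oasl1 -1.26 and Mx1 -1.44, and in High-VCR Stat2 -0.10, Zbp1 -1.53, Oasl2 -0.13, Ifi27 -0.047, Gbp6 -0.094, Oasl1 -1.84 and Mx1 -2.44. On Sertoli genes without Clu, VCR gave Zbp1 -0.47, Ifnl3 -0.77, Ifngr2 -0.16, Mx1 -0.96 and Oas3 -1.32, Low-VCR Oasl1 -0.93 and Mx1 -1.14, and High-VCR Zbp1 -1.01, Oasl1 -1.32 and Mx1 -1.90. On endothelial genes without Sox17, VCR gave Zbp1 -0.26, Ifnl3 -0.60, Mx1 -0.73 and Oas3 -1.12, Low-VCR Oasl1 -0.31 and Mx1 -0.47, and High-VCR Zbp1 -0.50, Oasl1 -0.83 and Mx1 -1.40.

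Replicate numbers did not pair the samples: over 40 pairs with the same number the correlation of deviations had a median of -0.0096, and 5 pairs exceeded 0.1. With the replicate block 39 members were called in VCR against NC, 17 in Low-VCR against VCR and 0 in the Low-VCR interaction. Depth limits Rsad2, Iigp1, Mx1 and the interferon ligands, which had few counts per library.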
